A study of Rattus norvegicus with 10 samples.

Results

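The genes described here encode carriers that move amino acids, or compounds built from or close to them, across cell membranes. They were picked by name from the deposited gene table, as every symbol of the families Slc1a, Slc3a, Slc6a, Slc7a, Slc36a, Slc38a and Slc43a except Slc7a11. This gave 60 of 23051 genes, without use of any difference between groups. Of the 60, 37 had at least 10 read counts in 5 or more libraries and were tested, and 23 did not. Among the untested genes, 5 had no count in any library, and the other 18 reached at most 14 counts in a library. At the edge of the filter, Slc6a16 was inside with 10 counts or more in 6 libraries, whereas Slc38a5, Slc38a8, Slc6a2, Slc6a5 and Slc7a9 were outside with 1 library each. The name rule also takes in some carriers of other cargo, which are named as such where they appear.

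RNA had been sequenced in bulk from rat tendon-derived stem cells (TDSCs), tendon progenitors that can be steered towards bone. Both groups were under osteogenic induction and were sampled on day 3: 5 control libraries had induction alone, and 5 had induction plus farnesol at 50 µM, an isoprenoid alcohol derived from the mevalonate pathway. The comparison asks what farnesol changes in induced cells. The labels call the controls not treated while their library names refer to a vehicle, so whether the controls received the solvent is not known, and strain, sex, age and passage are not given. The replicates are numbered as biological but nothing says that they were separate cultures or animals, so each p-value reflects the spread among the 10 samples as deposited, and that spread may be technical. Depth was 41.8 to 47.1 M (mega) counts per library. Where a gene has no count, up to 3 counts remain possible by counting error alone, which is 0.0637 to 0.0717 CPM (counts per M). Of the tendon markers, Scx and Mkx were present at 31.0 and 7.52 FPKM (fragments per kilobase and per M) in control and 19.0 and 5.54 in farnesol, whereas Tnmd stood at 0 to 1 counts. Of the neural, glial, endothelial, macrophage, blood and epithelial markers, Sox10, Cdh5, Ptprc, Adgre1 and Krt18 were at 0 in every library. The others had means of at most 2.39 FPKM in either group, apart from S100b, which was at 163 FPKM in control and 253 in farnesol.

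Amino acid carriers fall into a few working types. Sodium-coupled carriers of the SLC1, SLC6 and SLC38 families concentrate neutral or acidic amino acids, taurine or creatine inside the cell, and exchangers of the SLC7 family then trade these for others, such as leucine. Most SLC7 exchangers are light chains that reach the plasma membrane only when joined to a heavy chain of the SLC3 family, Slc3a2 (4F2hc, CD98) or Slc3a1 (rBAT). Leucine brought in this way is read by the kinase complex mTORC1, and a shortage of amino acids is read by the kinase GCN2 and the transcription factor ATF4, which raises many carrier genes. SNAT2, the product of Slc38a2, and LAT1, the product of Slc7a5, are well-known examples, and osteoblasts depend on glutamine and leucine uptake as they form bone.

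The sequences just before the gene starts are shown for the carriers on which the results turn. They are RefSeq sequences of the rat build GRCr8, 250 bases up to the gene start, 5′ to 3′ on the strand of the gene. Capitals mark matches to 3 motifs on either strand: TGATGNAA, the composite site of C/EBP and ATF factors, CACGTG, the E-box, and TGACNNNGC, the core of the antioxidant response element. Slc6a6 (chr4:125752252-125752501, plus strand) is the carrier that fell most among the abundant ones, Slc6a8 (chrX:156535767-156536016, plus) the one that rose with the smallest adjusted p, and Slc38a2 (chr7:129742620-129742869, minus) the most abundant. Slc7a1 (chr12:11664238-11664487, plus) is the main cationic carrier, Slc7a5 (chr19:66872413-66872662, minus) the LAT1 light chain, and Slc3a2 its heavy chain, with a first (chr1:215048065-215048314, minus) and a second start (chr1:215039671-215039920, minus).
Slc6a6: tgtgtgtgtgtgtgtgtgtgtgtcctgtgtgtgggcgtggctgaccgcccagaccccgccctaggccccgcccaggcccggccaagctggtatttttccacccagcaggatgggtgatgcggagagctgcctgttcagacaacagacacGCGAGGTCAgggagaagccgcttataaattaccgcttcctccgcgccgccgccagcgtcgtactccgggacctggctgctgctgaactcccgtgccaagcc
Slc6a8: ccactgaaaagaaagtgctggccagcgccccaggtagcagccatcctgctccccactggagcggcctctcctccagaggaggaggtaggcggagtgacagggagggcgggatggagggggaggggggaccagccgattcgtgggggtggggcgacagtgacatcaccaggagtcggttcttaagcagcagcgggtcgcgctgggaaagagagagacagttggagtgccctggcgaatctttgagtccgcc
Slc38a2: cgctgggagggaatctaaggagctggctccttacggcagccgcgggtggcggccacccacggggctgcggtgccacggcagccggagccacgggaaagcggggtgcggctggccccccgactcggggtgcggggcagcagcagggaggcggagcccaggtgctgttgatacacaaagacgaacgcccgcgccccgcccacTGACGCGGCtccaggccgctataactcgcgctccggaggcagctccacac
Slc7a1: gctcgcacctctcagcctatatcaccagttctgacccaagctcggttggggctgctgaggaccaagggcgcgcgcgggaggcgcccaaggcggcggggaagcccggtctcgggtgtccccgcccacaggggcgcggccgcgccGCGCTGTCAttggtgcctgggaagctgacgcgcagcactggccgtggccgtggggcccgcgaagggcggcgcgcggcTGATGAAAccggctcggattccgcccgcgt
Slc7a5: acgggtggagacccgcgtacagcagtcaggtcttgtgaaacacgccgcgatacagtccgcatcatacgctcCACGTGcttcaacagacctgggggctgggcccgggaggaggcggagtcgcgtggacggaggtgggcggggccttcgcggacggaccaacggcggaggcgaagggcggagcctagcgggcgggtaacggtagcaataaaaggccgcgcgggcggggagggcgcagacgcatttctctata
Slc3a2 first start: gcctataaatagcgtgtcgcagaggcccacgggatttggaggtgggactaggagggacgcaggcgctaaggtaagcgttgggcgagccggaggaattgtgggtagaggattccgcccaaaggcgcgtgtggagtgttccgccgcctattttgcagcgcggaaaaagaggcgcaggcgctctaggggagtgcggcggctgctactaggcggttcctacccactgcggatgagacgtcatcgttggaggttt
Slc3a2 second start: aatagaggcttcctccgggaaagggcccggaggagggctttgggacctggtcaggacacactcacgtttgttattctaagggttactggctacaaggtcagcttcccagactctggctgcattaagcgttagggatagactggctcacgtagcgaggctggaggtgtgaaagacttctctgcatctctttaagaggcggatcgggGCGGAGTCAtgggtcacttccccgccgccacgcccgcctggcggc

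The antioxidant response core stood 101 bases before the start of Slc6a6, 107 before Slc7a1, 50 before Slc38a2 and 45 before the second start of Slc3a2. The E-box of Slc7a5 was 179 bases before its start, and Slc7a1 also held the C/EBP-ATF composite 30 bases before its start, where ATF4 can bind in other genes of the amino acid response. None of the 3 motifs was found in the windows of Slc6a8 or of the first start of Slc3a2. In windows of 300 bases, 50 of them past the start, 27 tested carriers were matched by symbol with 31 starts. The C/EBP-ATF composite was in 3 of the 31 (9.68%, against 3.98% of 33469 rat promoters), the E-box in 6 (19.4%, against 6.42%) and the antioxidant core in 7 (22.6%, against 12.1%). Over all 49 windows of the 45 carriers matched, tested or not, the 3 motifs were in 3, 8 and 9. The rat promoters were not limited to those of tested genes, so these shares come from unlike sets. These matches describe letters only and show no binding. Among the carriers with the C/EBP-ATF composite, Slc7a1 fell whereas Slc38a1 and Slc1a4 did not pass the test.

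A few carriers made up most of the carrier messages. Per length and depth, Slc38a2 (SNAT2), a sodium-coupled importer of glutamine and other small neutral amino acids, led in control at 221 ± 11.1 FPKM (SD, n = 5). It was followed by the taurine carrier Slc6a6 at 70.5 ± 5.51, the heavy chain Slc3a2 at 47.5 ± 2.58, Slc38a10 at 42.1 ± 1.57 and the creatine carrier Slc6a8 at 39.2 ± 1.32 FPKM (SD, n = 5 each). These top members stood apart by more than their SDs in control, with Slc38a10 and Slc6a8 the closest pair. Slc1a4 (ASCT1), an exchanger of alanine, serine and cysteine, came next at 27.6 ± 0.30 FPKM. The exchanger Slc7a6 and the glutamine importer Slc38a1, both at 18.8 FPKM, could not be separated.

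In farnesol the order below Slc38a2 was different. Slc38a2 stayed first at 189 ± 15.03 FPKM (SD, n = 5). Slc3a2 at 62.7 ± 2.32, Slc38a10 at 61.8 ± 6.73 and Slc6a8 at 58.4 ± 2.37 FPKM lay close together, with Slc3a2 and Slc38a10 inside each other's SD, and Slc6a6 moved from rank 2 to rank 5 at 39.6 ± 4.74. The summed level of all 60 carriers was 570 ± 18.5 FPKM in control and 552 ± 12.3 in farnesol (SD, n = 5), of which Slc38a2 alone held 38.7% and 34.2%. The 4 leading carriers of the control order together held 66.8% in control and 63.9% in farnesol. At the other end, 12 tested carriers were under 1 FPKM in both groups.

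**Figure D1:**
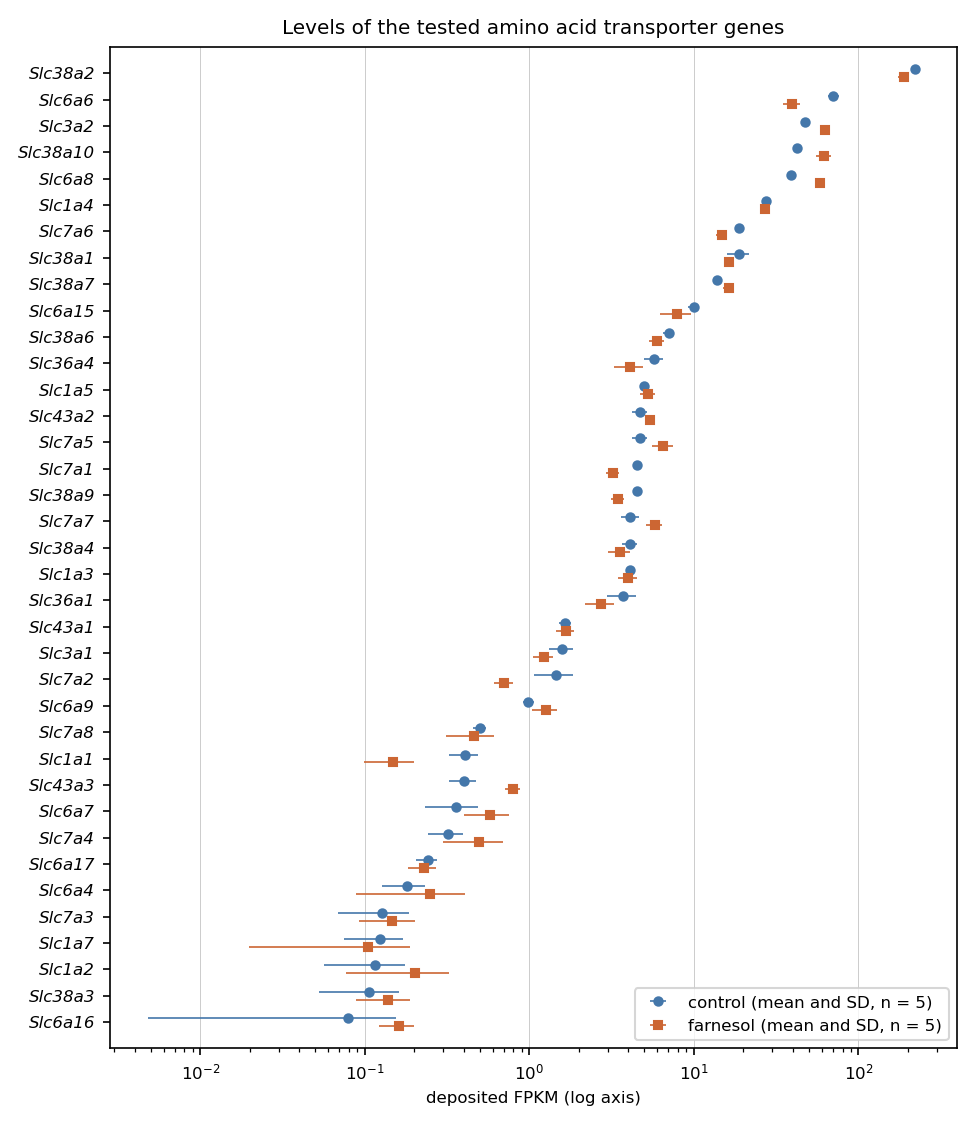
Level of each tested carrier in FPKM on a log axis, with points for the mean of the 5 control and the 5 farnesol libraries and bars for the SD. Slc38a2 leads at 221 FPKM in control and 189 in farnesol, Slc6a6 moves from 70.5 to 39.6, and 12 carriers lie under 1 FPKM in both groups.

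Farnesol moved carriers in both directions. With edgeR's quasi-likelihood test and Benjamini-Hochberg adjustment over 12942 genes, 19 of the 37 tested carriers passed an adjusted p of 0.05: 7 rose, 12 fell and 18 did not pass. That is 51.4% of the tested carriers against 59.2% of all tested genes (29.3% rose and 30.0% fell), so the share of carriers that changed is near that of genes in general and is not particular to them. The median log2 fold change was -0.06 over the tested carriers and 0.01 over all tested genes, and the median size regardless of sign was 0.38 and 0.33. Groups did not overlap for 12 carriers, 5 higher and 7 lower in farnesol, against 40.5% of all genes (19.7% higher, 20.9% lower), and these 12 were all among the 19. In bulk RNA, fewer cells that express a carrier and less message per cell cannot be told apart.

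A gradient between libraries runs with the groups and bears on every count here. The library axis, the main direction of spread within the groups, held 36.2% of the within-group variance, and mean scores were -21.4 in control and 21.4 in farnesol. Control replicate 1 (-40.3) and farnesol replicate 5 (60.0) were the extremes, and control replicate 3 (4.29) lay on the farnesol side of farnesol replicate 3 (-0.29). It ran with gene length: across the 10 libraries the score and the slope of a library's log2 level on log2 gene length had a correlation of -0.98, given as a description. With the axis as a covariate, 21.1% of all tested genes and 6 of the 37 tested carriers were called. With the length slope it was 7.53% and 2 of the 37. These carriers were all among the 19 called without a covariate, in the same direction. The median SE over the carriers grew from 0.12 to 0.13 and 0.16. The part of the axis in the differences was not tested, and values under both covariates are given below for each called carrier.

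**Figure D2:**
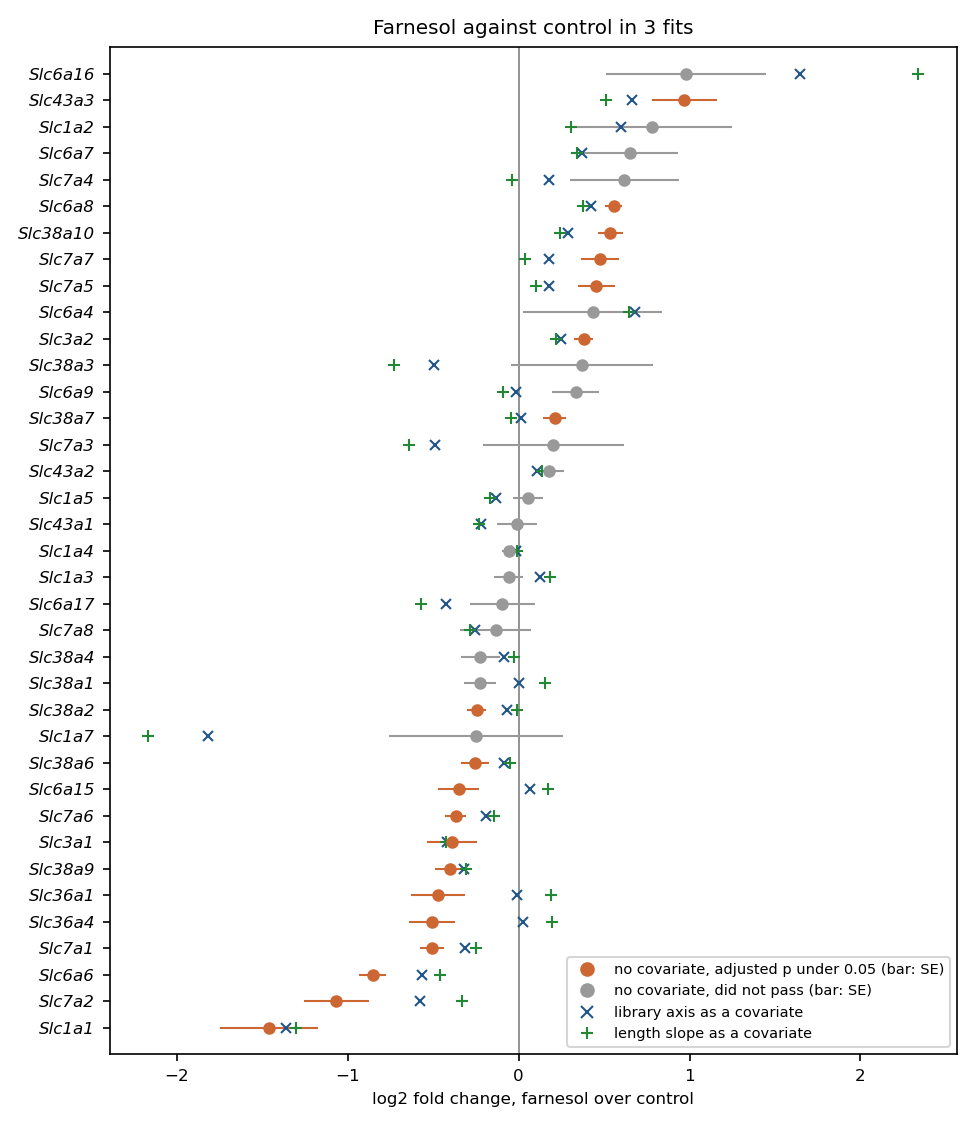
Log2 fold change of farnesol over control for each of the 37 tested carriers: circles without a covariate, coloured where the adjusted p passed 0.05, with the SE as a bar, crosses with the library axis and plus signs with the length slope as a covariate (drawn with no error). Slc6a6 lies at -0.85, -0.56 and -0.46 and Slc6a8 at 0.56, 0.42 and 0.38, whereas Slc36a4 moves from -0.50 to 0.03 and 0.19.

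The smallest adjusted p-values among the carriers were those of the taurine and creatine carriers, whose cargo serves as an osmolyte and an energy buffer and is not built into protein. The taurine carrier Slc6a6 (rn7 chromosome 4, 124195218 to 124268875, plus strand) was at 525, 489, 423, 460.1 and 475 CPM in the control libraries and at 256, 279, 285, 277 and 217 in the farnesol libraries. Every farnesol library was below every control library, and the lowest was farnesol replicate 5. The gene fell 1.81-fold, a log2 fold change of -0.85 (SE 0.08, edgeR adjusted p = 5.81e-06). As covariates, the axis left a fall of 0.56 (adjusted p = 8.13e-13) and the length slope one of 0.46 (adjusted p = 2.16e-06).

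The creatine carrier Slc6a8 (rn7 chromosome X, 151384675 to 151393979, plus strand) was at 149, 154, 163, 155 and 154 CPM in control and at 229, 228, 213, 222 and 248 in farnesol. The groups lay far apart relative to their spread. It rose 1.47-fold, a log2 fold change of 0.56 (SE 0.05, edgeR adjusted p = 5.16e-06), and kept 0.42 under the axis (adjusted p = 2.37e-09) and 0.38 under the length slope (adjusted p = 7.18e-05). Slc6a6 and Slc6a8 were the only carriers called under both covariates. Slc6a11 and Slc6a13, GABA carriers, had no counts.

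**Figure D3:**
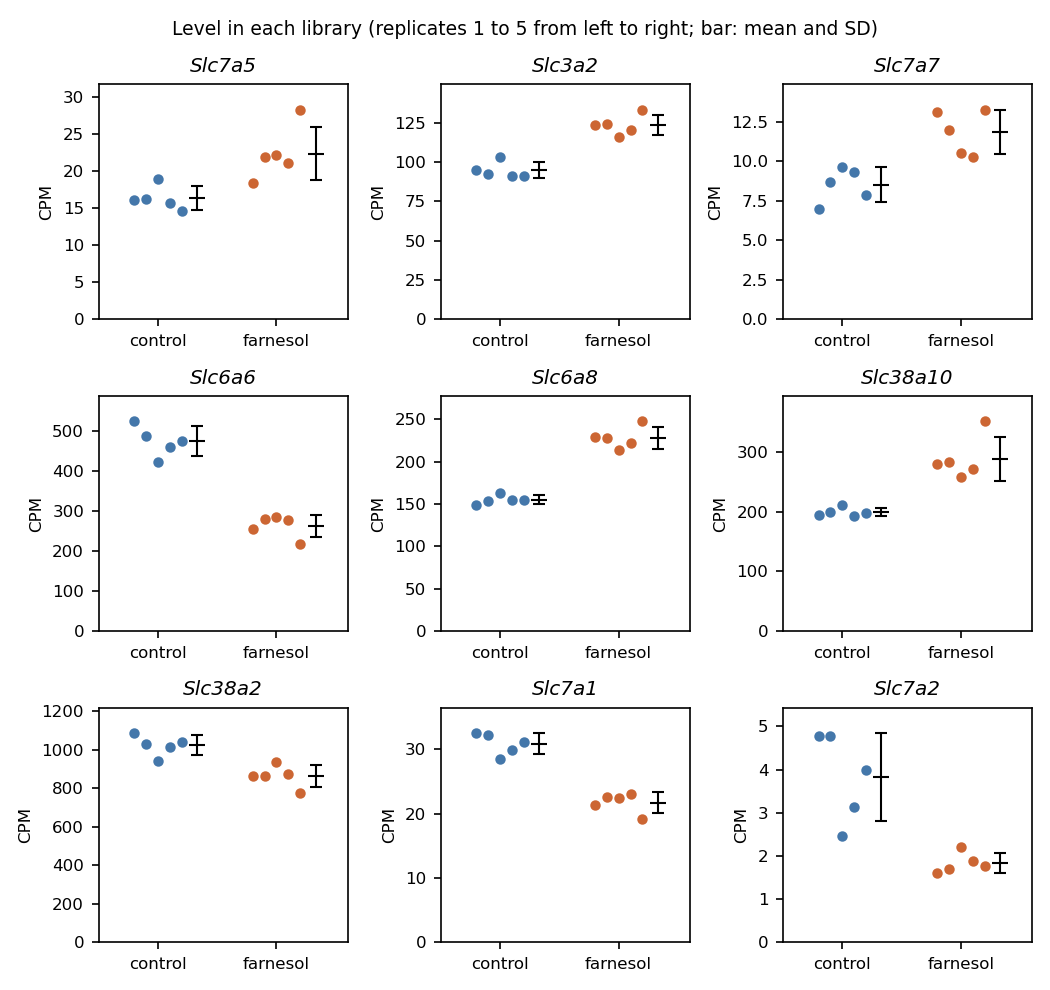
CPM of 9 carriers in each of the 10 libraries, 1 panel per carrier with its own axis from 0, the points being replicates 1 to 5 from left to right and the bar beside them the mean and SD (n = 5). Slc6a6 runs from 423 to 525 CPM in control and 217 to 285 in farnesol, and Slc6a8 from 149 to 163 and 213 to 248.

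Among the heteromeric exchangers, the heavy chain Slc3a2 rose while its light chains went separate ways. Of the 6 tested heavy and light chains, 3 rose, 2 fell and 1 did not pass. Slc3a2 (rn7 chromosome 1, 205604468 to 205618931, minus strand) was at 95.2, 92.3, 103, 91.4 and 91.3 CPM in control and 123, 124, 116, 120.3 and 133 in farnesol. No farnesol library reached down into the control range. The gene rose 1.30-fold (log2 fold change 0.38, SE 0.05, edgeR adjusted p = 0.000154). The axis left 0.25 (adjusted p = 0.000343), and the length slope 0.22, which did not pass (adjusted p = 0.0584).

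Slc7a5 (LAT1), the light chain that imports leucine and other large neutral amino acids, stands at rn7 chromosome 19, 49935220 to 49963823, minus strand. It was at 16.1, 16.3, 18.9, 15.7 and 14.5 CPM in control and 18.4, 21.8, 22.1, 21.1 and 28.2 in farnesol. The groups met at one point, where control replicate 3 was above farnesol replicate 1, and farnesol replicate 5 was the highest. It rose 1.37-fold (log2 fold change 0.45, SE 0.11, edgeR adjusted p = 0.00319), and the value was between 0.36 and 0.52 with any single library left out. It was 0.18 under the axis (adjusted p = 0.262) and 0.10 under the length slope (adjusted p = 0.794), so this call rests on the fit without a covariate.

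The balance of light to heavy chain did not differ measurably. The log2 ratio of Slc7a5 to Slc3a2 per length was -3.35 ± 0.07 in control and -3.28 ± 0.19 in farnesol (SD, n = 5), a difference of 0.06 (2-sided exact permutation test, p = 0.516, where 5 against 5 can reach 0.00794). With any single library left out the difference lay between 0.0033 and 0.13. A p of this size does not show that the ratio was equal.

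The light chains Slc7a7 (y+LAT1) and Slc7a6 (y+LAT2) both export arginine and lysine in exchange for neutral amino acids, and they went opposite ways. Slc7a7 was at 7.01, 8.73, 9.68, 9.35 and 7.88 CPM in control and 13.1, 12.01, 10.5, 10.3 and 13.3 in farnesol, with no overlap. It rose 1.39-fold (log2 fold change 0.47, SE 0.11, edgeR adjusted p = 0.00278), and had 0.18 under the axis (adjusted p = 0.362) and 0.04 under the length slope (adjusted p = 0.942). Slc7a6 was at 74.7, 77.9, 67.2, 73.6 and 75.4 CPM in control and 56.2, 58.3, 60.6, 59.5 and 51.1 in farnesol, again apart. It fell 1.29-fold (log2 fold change -0.37, SE 0.06, edgeR adjusted p = 0.000389) and kept its call with the axis at -0.19 (adjusted p = 0.0118) but not with the length slope at -0.14 (adjusted p = 0.331). The light chain Slc7a8 (LAT2) was low, at 2.06 ± 0.18 and 1.88 ± 0.61 CPM (SD, n = 5), and did not pass. The other heavy chain, Slc3a1, was at 3.62 ± 0.59 CPM in control and 2.77 ± 0.37 in farnesol (edgeR adjusted p = 0.0348), a call lost when any of control replicates 1 to 3 or farnesol replicates 2 to 5 was left out (up to 0.0828). Its log2 fold change of -0.39 was -0.42 under the axis (adjusted p = 0.204) and -0.43 under the length slope (adjusted p = 0.453), neither of which passed. Its partner Slc7a9 had too few counts to test. Together the 10 chains summed to 77.3 ± 2.67 FPKM in control and 91.5 ± 2.30 in farnesol (SD, n = 5), most of it Slc3a2.

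The cationic amino acid carriers need no heavy chain, and Slc7a1, Slc7a2 and Slc7a3 bring in arginine and lysine. Slc7a4 and Slc7a14 are counted with them by family, and their cargo was not examined. Of 4 tested members of this family, 2 fell, none rose, and 2 scarce ones with higher means in farnesol did not pass. Slc7a1 (CAT1, rn7 chromosome 12, 6628007 to 6703849, plus strand) was at 32.6, 32.1, 28.5, 29.9 and 31.2 CPM in control and 21.3, 22.6, 22.5, 23.1 and 19.1 in farnesol. The ranges were well apart. It fell 1.42-fold (log2 fold change -0.51, SE 0.07, edgeR adjusted p = 0.000114), with -0.31 under the axis (adjusted p = 0.00305) and -0.25 under the length slope (adjusted p = 0.138). Slc7a2 (CAT2), a second arginine carrier, was at 4.79, 4.78, 2.47, 3.14 and 4.00 CPM in control and 1.61, 1.71, 2.21, 1.88 and 1.76 in farnesol. Control replicate 3 came nearest to the farnesol range without entering it. It fell 2.09-fold (log2 fold change -1.07, SE 0.19, edgeR adjusted p = 0.000574), a value of -0.58 under the axis (adjusted p = 0.108) and -0.33 under the length slope (adjusted p = 0.639). Slc7a3 (CAT3) was at 0.309 ± 0.14 and 0.355 ± 0.14 CPM (edgeR adjusted p = 0.685), and Slc7a4 at 0.791 ± 0.19 and 1.22 ± 0.50 CPM (edgeR adjusted p = 0.108). The summed level of the 5 genes was 6.38 ± 0.57 FPKM in control and 4.55 ± 0.29 in farnesol (SD, n = 5).

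The SLC38 family of neutral amino acid carriers held 54.6% of all carrier FPKM in control, most of it from Slc38a2, and was mixed. Of 8 tested members, 2 rose, 3 fell and 3 did not pass. Slc38a2 (rn7 chromosome 7, 127851267 to 127863436, minus strand) was at 1089.7, 1032, 945, 1016 and 1039 CPM in control and 867, 866, 936, 875 and 777 in farnesol. The lowest control library, replicate 3, was just above the highest farnesol library, also numbered 3. It fell 1.19-fold (log2 fold change -0.25, SE 0.06, edgeR adjusted p = 0.00278), but had -0.07 under the axis (adjusted p = 0.2) and -0.01 under the length slope (adjusted p = 0.972). Taking a smooth trend with gene length out of every library left -0.05 (adjusted p = 0.279).

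Slc38a10 was at 195, 199.8, 211, 192 and 197 CPM in control and 279.5, 284, 257, 272 and 352 in farnesol. Farnesol replicate 5 stood above its group, and the groups were apart without it. The gene rose 1.45-fold (log2 fold change 0.54, SE 0.08, edgeR adjusted p = 0.000134), with 0.29 under the axis (adjusted p = 5.59e-05) and 0.24 under the length slope (adjusted p = 0.068). Slc38a9, an arginine sensor of the lysosome that signals to mTORC1, was at 9.0 ± 0.36 CPM in control and 6.81 ± 0.55 in farnesol (SD, n = 5). It fell 1.32-fold (edgeR adjusted p = 0.00152) and had -0.32 under the axis (adjusted p = 0.0896) and -0.31 under the length slope (adjusted p = 0.328), which did not pass. Slc38a7, which exports glutamine and asparagine from lysosomes, rose from 44.4 ± 1.99 to 51.4 ± 4.58 CPM (edgeR adjusted p = 0.0166), a log2 fold change of 0.21 that became 0.01 under the axis and -0.04 under the length slope. Slc38a6 fell by 0.25 (edgeR adjusted p = 0.0169), from 21.1 ± 1.63 to 17.7 ± 1.64 CPM (SD, n = 5). It had -0.09 under the axis (adjusted p = 0.597) and -0.05 under the length slope (adjusted p = 0.894), and the call was lost with the replicate block (adjusted p = 0.0661).

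Slc38a1 (SNAT1) and Slc38a4 (SNAT4), the other system A carriers, did not pass. Slc38a1 was at 39.9 ± 6.37 CPM in control and 34.1 ± 1.27 in farnesol (log2 fold change -0.23, edgeR adjusted p = 0.0507), and was called by DESeq2. Slc38a4 was at 8.22 ± 0.83 and 7.04 ± 1.04 CPM (SD, n = 5; log2 fold change -0.22, edgeR adjusted p = 0.112). Slc38a3, a system N carrier, was low at 0.256 ± 0.13 and 0.330 ± 0.12 CPM and did not pass either (edgeR adjusted p = 0.459). The genes Slc38a1, Slc38a2 and Slc38a4 lie side by side on rn7 chromosome 7, with gaps of 49.0 and 281 kb. Without a covariate their differences were -0.23, -0.25 and -0.22. In the same order they were 0.0032, -0.07 and -0.08 under the axis and 0.15, -0.01 and -0.03 under the length slope. With the length trend taken out they were -0.31, -0.05 and -0.32. Without a covariate, the other close pairs were unlike each other. Slc43a1 and Slc43a3 on chromosome 3, 62.5 kb apart, had -0.01 and 0.97. Slc7a7 and Slc7a8 on chromosome 15, 317 kb apart, had 0.47 and -0.13.

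The SLC1 family, which carries glutamate and, in Slc1a4 and Slc1a5, small neutral amino acids, differed little between groups. Of 6 tested, 1 fell and 5 did not pass. Slc1a4 was at 109 ± 1.34 CPM in control and 105 ± 3.01 in farnesol (log2 fold change -0.06, edgeR adjusted p = 0.274). Slc1a5 (ASCT2), the glutamine exchanger, was at 14.2 ± 0.80 and 14.8 ± 1.64 CPM (log2 fold change 0.06, edgeR adjusted p = 0.595). The glutamate carrier Slc1a3 (GLAST) was at 22.7 ± 1.35 and 21.8 ± 2.54 CPM (log2 fold change -0.06, edgeR adjusted p = 0.576; SD, n = 5 in each case). The glutamate carriers Slc1a2 (GLT-1) and Slc1a7 were low and did not pass (edgeR adjusted p = 0.17 and 0.688). Slc1a2 was at 0.316 ± 0.16 and 0.543 ± 0.33 CPM, and Slc1a7 at 0.346 ± 0.13 and 0.292 ± 0.24 CPM. The exception was the neuronal-type glutamate carrier Slc1a1, also a cysteine importer, at 1.16, 0.642, 1.01, 0.933 and 0.897 CPM in control and 0.242, 0.481, 0.400, 0.211 and 0.339 in farnesol. The groups were apart at this low level of 9 to 52 counts per library. It fell 2.75-fold (log2 fold change -1.46, SE 0.29, edgeR adjusted p = 0.00102) and had -1.36 under the axis (adjusted p = 0.0528) and -1.30 under the length slope (adjusted p = 0.228). An unnamed gene overlaps Slc1a1 on the opposite strand and had no counts.

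Of the SLC6 carriers of amino acids proper, 1 of 4 tested fell. Slc6a15 (B0AT2), a sodium-coupled importer of branched-chain amino acids and proline, was at 38.7, 35.0, 32.1, 35.5 and 37.6 CPM in control and 25.6, 31.8, 34.8, 27.6 and 20.4 in farnesol. Farnesol replicate 3 lay inside the control range. It fell by 0.35 on the log2 scale (SE 0.12, edgeR adjusted p = 0.022), but the call was lost without control replicate 1 or farnesol replicate 1 (adjusted p up to 0.061), and the sign turned under the axis (0.07) and the length slope (0.17). The glycine carrier Slc6a9 was at 3.43 ± 0.25 CPM in control and 4.33 ± 0.81 in farnesol (edgeR adjusted p = 0.051), and the proline carrier Slc6a7 at 0.998 ± 0.35 and 1.58 ± 0.50 CPM (edgeR adjusted p = 0.0599), so neither passed. Slc6a17, a carrier of synaptic vesicles, was at 1.54 ± 0.23 and 1.44 ± 0.30 CPM (edgeR adjusted p = 0.680). The serotonin carrier Slc6a4, the single monoamine carrier tested, was at 0.404 ± 0.12 and 0.550 ± 0.35 CPM and did not pass either (edgeR adjusted p = 0.378).

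Both tested SLC36 carriers fell without a covariate and not with one. Slc36a4, a proline and tryptophan carrier, was at 33.6, 29.2, 23.0, 29.3 and 31.2 CPM in control and 20.1, 21.7, 25.1, 21.9 and 14.3 in farnesol. Control replicate 3 was below farnesol replicate 3. The fall was 0.50 on the log2 scale (SE 0.13, edgeR adjusted p = 0.00614), and the value became 0.03 under the axis and 0.19 under the length slope. Slc36a1 (PAT1), which exports small neutral amino acids from lysosomes, was at 7.36 ± 1.51 CPM in control and 5.31 ± 1.02 in farnesol (SD, n = 5). Its log2 fold change was -0.47 (edgeR adjusted p = 0.0212), -0.01 under the axis and 0.19 under the length slope, and the call was lost without control replicate 1, control replicate 2 or farnesol replicate 1 (adjusted p up to 0.0629).

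In the SLC43 family, Slc43a1 and Slc43a2, facilitators of large neutral amino acids, did not pass. Slc43a1 (LAT3) was at 4.91 ± 0.39 CPM in control and 4.88 ± 0.67 in farnesol (SD, n = 5; edgeR adjusted p = 0.950). Slc43a2 (LAT4) was at 21.3 ± 2.26 CPM in control and 24.2 ± 1.87 in farnesol (SD, n = 5; log2 fold change 0.18, edgeR adjusted p = 0.0849). Slc43a3, which carries purine nucleobases and no amino acids, was at 0.712, 0.642, 1.01, 0.979 and 0.812 CPM in control and 1.54, 1.42, 1.54, 1.76 and 1.87 in farnesol. The groups were apart at 29 to 83 counts per library. It rose by 0.97 on the log2 scale (SE 0.19, edgeR adjusted p = 0.00103), with 0.67 under the axis (adjusted p = 0.17) and 0.51 under the length slope (adjusted p = 0.574). Summed markers of macrophages and blood ran from 0.726 to 1.65 FPKM in control and from 2.24 to 2.79 in farnesol, mostly Cd68, with 2 of 5 (Ptprc and Adgre1) at 0. Their part in the result was not tested.

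Set against the library axis, the carriers split. Slc6a6, Slc6a8, Slc3a2, Slc38a10, Slc7a1 and Slc7a6 kept their call with the axis as a covariate, and Slc36a4, Slc36a1, Slc38a7 and Slc6a15 changed sign under at least 1 covariate. The tested carriers were 1977 to 6823 bp long, with a median of 2907 against 3079 for all genes. The rank correlation of length with the log2 fold change was -0.14 over the 37 carriers and -0.38 over all tested genes, as a description of these libraries. After the smooth trend with length was taken out, 17 of the 19 carriers kept their call, all but Slc38a2 and Slc6a15, and 22 carriers were called in all. Those added were Slc38a1 (-0.31), Slc38a4 (-0.32), Slc43a2 (0.37), Slc6a9 (0.44) and Slc1a3 (0.19), the last with its sign turned.

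**Figure D4:**
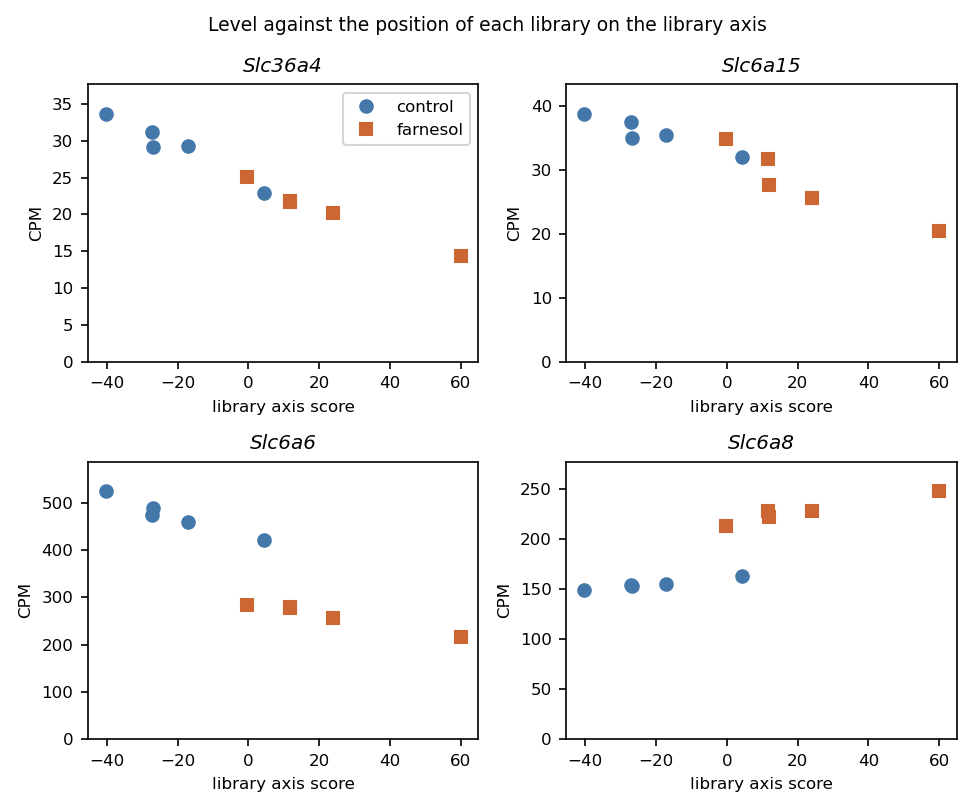
CPM of Slc36a4, Slc6a15, Slc6a6 and Slc6a8 against the library axis score (no unit), 1 point per library, circles for control and squares for farnesol. Slc6a6 and Slc6a8 are separated by group where the scores of control replicate 3 (4.29) and farnesol replicate 3 (-0.29) meet, whereas in Slc36a4 and Slc6a15 the libraries of both groups lie along a shared slope.

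Genes that read, regulate or use the carried amino acids were set beside the carriers, from lists drawn up with earlier results of these data known. In the amino acid response to GCN2, PERK and ATF4, 7 of 15 tested genes rose and 3 fell, with a median log2 fold change of 0.19. In each of the lists the calls are to be read against the 59.2% of all tested genes that were called, 29.3% that rose and 30.0% that fell, and calls under the axis and the length slope against 21.1% and 7.53%. Ddit4, an mTORC1 inhibitor, rose 2.08-fold from 11.1 ± 0.85 to 23.1 ± 1.89 CPM. Ddit3 (CHOP) rose 1.56-fold, Gpt2 (an alanine aminotransferase) 1.40-fold and Atf4 itself from 234 to 277 CPM, while Eif2ak3 (PERK) fell 1.35-fold. Atf4 did not pass under the axis (0.06, edgeR adjusted p = 0.325), the length slope (-0.0051, adjusted p = 0.981) or with the length trend taken out (0.07, adjusted p = 0.165), nor did Eif2ak3 under the axis (adjusted p = 0.0744) or the length slope (adjusted p = 0.701). Of the list, 5 passed under the axis and 2 under the length slope, Ddit4 and Gpt2. Ddit3 passed under the axis (0.36, edgeR adjusted p = 0.00699) and not under the length slope (0.28, adjusted p = 0.236).

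In amino acid sensing at mTORC1, 15 of 32 tested genes rose and 7 fell, against 59.2% of all genes called, again with a median of 0.19. Fnip1, the partner of folliculin, fell 1.76-fold from 53.9 ± 8.59 to 30.7 ± 4.14 CPM. Tsc2, a brake on mTORC1, rose 1.40-fold, and Lamtor1 and Lamtor5 of the lysosomal anchor rose 1.37-fold and 1.21-fold. With the length trend taken out, Lamtor5 had 0.03 and did not pass (edgeR adjusted p = 0.667). Fnip1, Tsc2 and Lamtor1 passed in that fit (edgeR adjusted p = 0.000151, 0.00017 and 0.00214). Under the axis 6 of the list passed, and under the length slope none (0).

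Among regulators of carrier level and surface display, 6 of 14 rose and 5 fell, against 59.2% of all genes called, with a median of 0.01. Under the axis 4 passed, under the length slope 2 and with the length trend taken out 7. Hif1a, the hypoxia factor, fell 1.90-fold from 207 ± 26.3 to 109 ± 23.2 CPM, and Nedd4, a ubiquitin ligase that removes carriers from the surface, fell 1.39-fold with overlapping groups. Nedd4 had -0.06 under the axis (edgeR adjusted p = 0.353), 0.11 under the length slope (adjusted p = 0.273) and -0.09 with the length trend taken out (adjusted p = 0.146). Txnip fell 1.23-fold and Epas1 1.17-fold, and Epas1 passed in none of these 3 fits (adjusted p = 0.0574, 0.585 and 0.497). Hif1a and Txnip passed under the axis and not under the length slope (edgeR adjusted p = 0.164 and 0.311). The genes that passed under the length slope, Sgk1 and Nedd4l, both rose. Sgk1 had 0.23 without a covariate, 0.42 under the axis (edgeR adjusted p = 4.42e-09) and 0.47 under the length slope (adjusted p = 1.43e-05). Nedd4l had 0.21, 0.36 (edgeR adjusted p = 0.00397) and 0.41 (adjusted p = 0.025) in the same fits.

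Enzymes that use the carried amino acids held 17 rises and 3 falls among 27 tested, against 29.3% and 30.0% of all genes, with a median of 0.37. Glul, which makes glutamine from glutamate, rose 1.36-fold from 389 ± 5.73 to 530.2 ± 11.98 CPM (SD, n = 5). The aspartate aminotransferases Got1 and Got2 rose 1.32-fold and 1.41-fold. Under the length slope Got1 passed (0.49, edgeR adjusted p = 0.000111) and Got2 did not (0.18, adjusted p = 0.0728). Of enzymes on the way to taurine and creatine, Csad, which acts between cysteine and taurine, rose 1.62-fold from 8.02 to 13.0 CPM, whereas Cdo1, the step before it, was at 15.9 and 17.0 CPM and Gamt, which makes creatine, at 0.338 and 0.456 CPM, and these 2 did not pass. Cdo1 passed under the axis (0.37, edgeR adjusted p = 0.00832) and the length slope (0.46, adjusted p = 0.0267), whereas Csad passed under the axis (adjusted p = 0.00399) and not under the length slope (adjusted p = 0.142). Under the axis 13 of the list passed, and under the length slope 7.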

How the data were processed

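The authors deposited 1 table for the series that holds raw read counts per gene and library and, beside them, FPKM values, per the file headers. Build rn7 and the tools HISAT2 2.0.5, StringTie, HTSeq 0.9.1 and DESeq are listed, per the submitters' processing notes, without their roles. The strand setting of the counting was not given in the sources used here. Reads from a pair of overlapping genes on opposite strands therefore cannot be told apart. Each deposited FPKM can be had from its count, the column total and a single length per gene, and lengths were taken from that relation. Of 23052 rows, 1 repeated row was removed. No column of values lacked a sample.

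Samples were grouped by the labels. The test was edgeR's (4.0.16, R 4.3.3; TMM, robust glmQLFit, glmQLFTest, group as the single term) on 12942 genes with at least 10 counts in 5 libraries, adjusted over them by Benjamini-Hochberg with a threshold of 0.05. An SE is the size of the log2 fold change over the root of its F value. CPM, from TMM-scaled sizes, serve comparisons within a gene, and FPKM those between genes. The fit without a covariate was run on simulated counts that held no library axis and no trend with gene length. The fits with covariates were not simulated. The direction of the library axis is the leading principal component of log2 CPM centred within each group. The scores are positions along it of log2 CPM centred over all 10 libraries. They therefore also hold any difference between the groups in that direction. The length slope regresses, per library, the log2 level relative to the average library on log2 gene length. A covariate that runs with the groups can also take up part of an effect of farnesol.

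The carriers, the lists and the covariates were chosen with earlier results of these data known. Named carriers are Slc7a5, Slc3a2, the 5 with the highest control FPKM, the called ones with the largest changes and further members by family. The called ones with the largest changes are up to 8 each way, at 0.5 FPKM or more. Of each list, up to 4 genes with the smallest p are named. Atf4, Cdo1, Gamt, Sgk1 and Nedd4l were added after their values were seen. Some genes that the rule names are left out of the text. Promoter windows are RefSeq sequences of GRCr8, whereas the counts use rn7, and no coordinates were compared between the builds. Alternatives were other size factors, filters and thresholds, the covariates, a smooth length trend, each library left out, a replicate block, DESeq2 1.42.0, limma-voom, and limma-trend (limma 3.58.1) on log2(FPKM + 0.1) and log2(FPKM + 1). The labels number the replicates but state no pairing of libraries. Replicate libraries differed by a chi-square per gene of 3.93 to 112 (20 pairs), more than sampling noise, so none was taken as a repeat.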

Additional observations from a re-analysis of the deposited data

Results flagged for a closer look

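In 3 of 76 groups of 5 libraries examined, those of each tested carrier and of the ratio of Slc7a5 to Slc3a2 in each condition, 1 library stood far from the others of its group by the ratio of its gap to the group's range, with a limit of 0.71. Chance alone flags about 1 in 20 such groups. Slc38a10 in farnesol had a ratio of 0.722, where replicate 5 was at 352 CPM and the next library at 284. Slc7a8 in control had a ratio of 0.797, where replicate 2 was at 1.75 CPM and the next at 2.09. Slc6a16, an orphan member of its family, had a ratio of 0.931 in control, where replicate 1 was at 0.623 CPM and the next at 0.155. The Slc6a16 log2 fold change was 0.98 (edgeR adjusted p = 0.0871), and 1.75 without control replicate 1 (adjusted p = 0.0022).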

How the results depend on the processing

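The number of changed carriers, 19, was 15 to 22 under other size factors, filters and tests, with limma on FPKM and with the replicate number as a block, and 14 at an adjusted p of 0.01. With the library axis as a covariate it was 6 (3 rose, 3 fell) and with the length slope 2 (1 rose, 1 fell). Over all genes, 2730 (1179 rose, 1551 fell) and 975 (388 rose, 587 fell) were called with these covariates, against 7668 without. The response list had 5 and 2 calls, the mTORC1 list 6 and 0, the regulators 4 and 2 and the enzymes 13 and 7. The regulators also dropped to 7 with the length trend removed and to 7 at an adjusted p of 0.01. Directions turned for Slc36a4 (0.0275 with the axis, 0.19 with the slope), Slc6a15 (0.0655 and 0.17), Slc36a1 (0.19 with the slope), Slc38a7 (-0.0433 with the slope) and Slc1a3, not called, at 0.19 with the length trend removed. Causes were not tested.

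With any single library left out, 17 to 20 carriers changed (7 to 9 rose, 9 to 13 fell), as did 6894 to 7894 of all genes (3355 to 3906 rose, 3500 to 3988 fell). The lists then had 10 to 11 (response), 18 to 23 (mTORC1), 10 to 11 (regulators) and 19 to 21 (enzymes) calls, and the ratio of Slc7a5 to Slc3a2 0.0033 to 0.13. Without both control replicate 1 and farnesol replicate 5, chosen after seeing the data, 17 carriers changed. With the replicate block 15 did, without Slc36a1, Slc38a6, Slc38a7 and Slc3a1. Same-numbered libraries had correlations of -0.39 to 0.05 in their deviations from the group means. The library axis is the main direction of these deviations, so the correlations cannot show whether the libraries were paired. Carriers under 1 FPKM, 12 of 37, limit what these counts can show: 2 of them were called.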
